A study of Mus musculus with 11 samples.

Results

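The antioxidant system was followed through 42 genes in alveolar macrophages of newborn mice: the enzymes that remove superoxide and peroxides, the glutathione and thioredoxin systems that keep them working, the enzymes that supply NADPH to both, and a few genes switched on by oxidative stress. The genes were chosen by function, with earlier results of these data known, and all 42 were found among the 57180 gene identifiers of the count table. The 11 libraries came from wild-type C57BL/6 pups, whose lungs were homogenized on postnatal day 7 so that alveolar macrophages could be sorted by flow cytometry for bulk RNA-seq. The sources used here do not name the sorting markers. In the hyperoxia groups, pups had been kept in 95% oxygen from postnatal day 1 to day 5, so the cells were taken 2 days after the exposure ended. The other pups were kept in normoxia. There were 3 libraries of hyperoxia females (HF1 to HF3) and 2 of hyperoxia males (HM2 and HM3), against 3 of normoxia females (NF1 to NF3) and 3 of normoxia males (NM1 to NM3), where the number is the replicate number of the labels. All 4 groups share the genotype, the age and the way the cells were obtained. Whether replicates stem from separate animals or from pools is not stated in the labels. A p-value here therefore speaks of the spread among these libraries only, part of which may be technical.

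Superoxide, which oxygen forms in mitochondria and which phagocytes make on purpose, is turned into hydrogen peroxide by superoxide dismutases. Catalase, the glutathione peroxidases and the peroxiredoxins remove the peroxide. The glutathione peroxidases spend reduced glutathione, which glutathione reductase regenerates, and most peroxiredoxins are recharged by thioredoxin and thioredoxin reductase, and both reductases take their electrons from NADPH. Many of these genes are targets of the transcription factor NRF2 (gene Nfe2l2), which its inhibitor KEAP1 holds back until oxidants or electrophiles modify KEAP1. Alveolar macrophages live in the air spaces, where oxygen is higher than in other tissues, and they produce oxidants when they kill microbes.

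Total counts ran from 24484375 to 30304004 in the 5 hyperoxia libraries and from 18087948 to 32579468 in the 6 normoxia libraries. A count of 3, used as the floor of detection, was worth 0.0880 to 0.118 CPM, the unit of library-size-scaled counts, in hyperoxia and 0.0954 to 0.160 CPM in normoxia. By the number of genes with at least 1 count, 4 libraries stood apart, with 35449 and 34236 in HF2 and HF3 and 33158 and 35530 in NF3 and NM3, against 26856 to 30173 in the other 7. The cells carried the alveolar macrophage markers of a list of 15, all measured, which summed to 5512 to 7846 CPM in hyperoxia and 4979 to 8780 CPM in normoxia. Of that list, the 5 markers Ear1, Fabp4, Krt79, Cidec and Fabp1 were called lower after hyperoxia over both sexes and none higher. In bulk RNA, fewer cells of a type and less RNA per cell cannot be told apart, and this holds for every difference given here.

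After hyperoxia, 1 gene of this set passed the test. Over both sexes, 1 of the 41 genes that passed the filter on low counts was called, Gpx3, the secreted plasma glutathione peroxidase, which was higher after hyperoxia. That is 2.44% of the measured genes, beside 0.707% of all 19948 genes tested and 0.541% called higher. The test was the quasi-likelihood test of edgeR, with Benjamini-Hochberg adjusted p-values over all genes tested, and called means an adjusted p under 0.05. All adjusted p-values of genes come from it unless another tool is named. Without adjustment, 4 genes had p under 0.05 (9.76%, beside 8.13% of all genes): Gpx3, Prdx4, Glrx and Txnrd3. All 4 were higher after hyperoxia, where 4.79% of all genes had such a p and were higher. In 2 genes, Gpx3 and Glrx, every hyperoxia library lay above every normoxia library (4.88%, beside 2.16% of all genes not overlapping in either direction and 1.76% with hyperoxia higher). The log2 fold change was above 0 for 17 and below 0 for 24 genes, with a median of -0.12 beside -0.03 over all genes. Gsta3 did not pass the filter, with 1 to 6 counts per hyperoxia library and 0 to 13 per normoxia library.

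**Figure D1:**
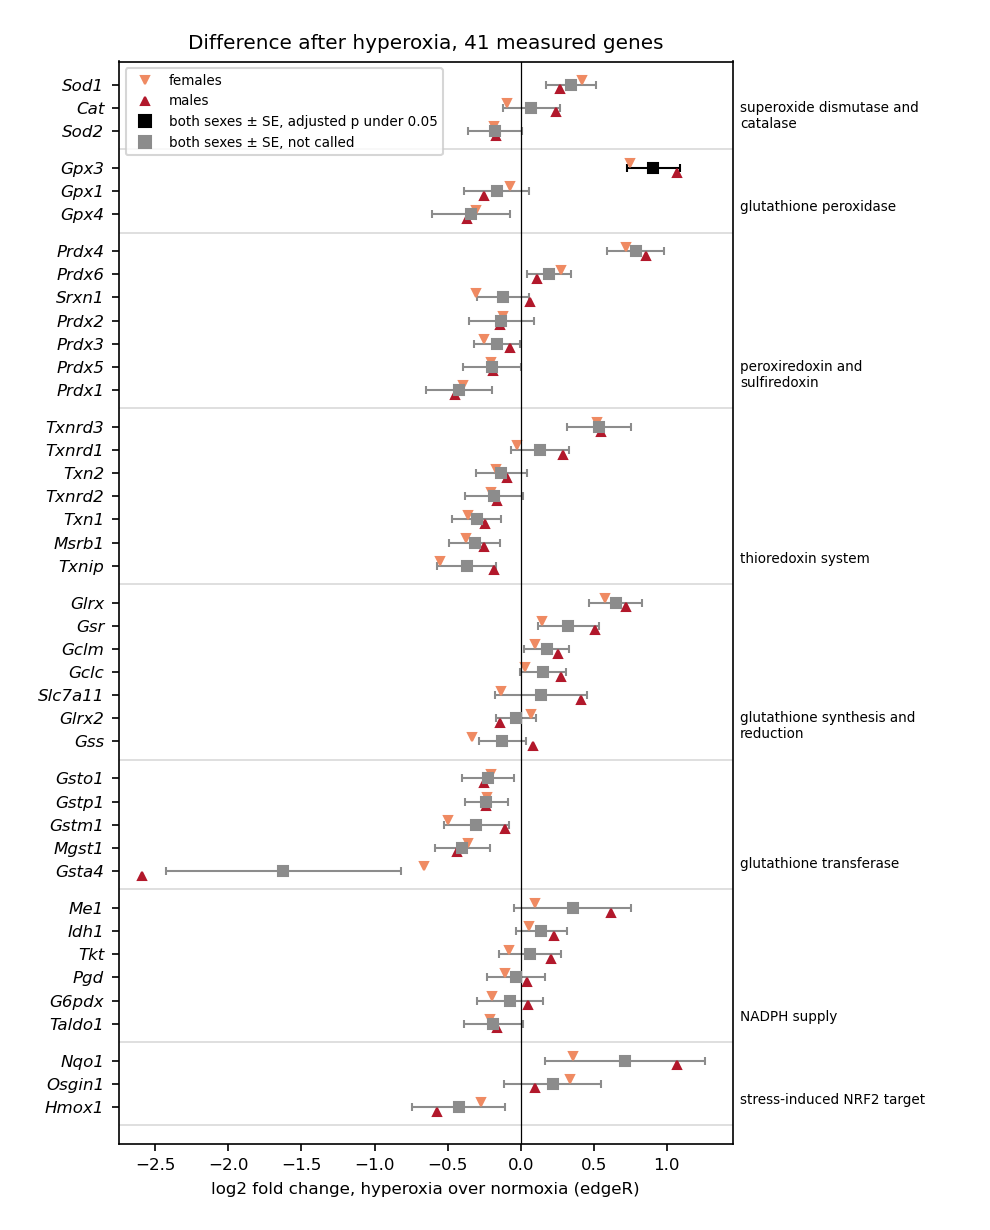
Log2 fold change of hyperoxia over normoxia (horizontal axis) for the 41 measured genes, grouped by role. Squares with bars are the difference over both sexes with its SE, black where the adjusted p was under 0.05, and triangles are the difference in females (pointing down) and in males (pointing up). Gpx3 is the black square at 0.91, and the next genes by p, Prdx4, Glrx and Txnrd3, lie at 0.79, 0.65 and 0.54.

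The set is strongly expressed in these cells. Levels between genes are compared per length, as CPM per kilobase of the longest coding transcript (CPM per kb), averaged over the 11 libraries. Gpx1, the main cytosolic glutathione peroxidase, was highest at 723 CPM per kb, and 0.344% of the measured coding genes reached that level. Taldo1 followed at 489, Gpx4 at 237.5, Txnip at 235.5 and Prdx1 at 219 CPM per kb. In all, 22 of the 41 measured genes were in the top 10% of coding genes by level per kb, and 34 had at least 10 CPM in every library. The low end held Gsta3 at 0.101, Gsta4 at 0.358, Me1 at 0.530, Nqo1 at 0.561 and Osgin1 at 0.877 CPM per kb. Nqo1 and Osgin1 are NRF2 targets in many tissues, while Hmox1, another, stood at 98.7 CPM per kb. With the length of all exons joined instead of the longest transcript, Cat passed Sod1 and Gstm1 passed Gsto1 as the top gene of its role group, and the other 6 groups kept their top gene.

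**Figure D2:**
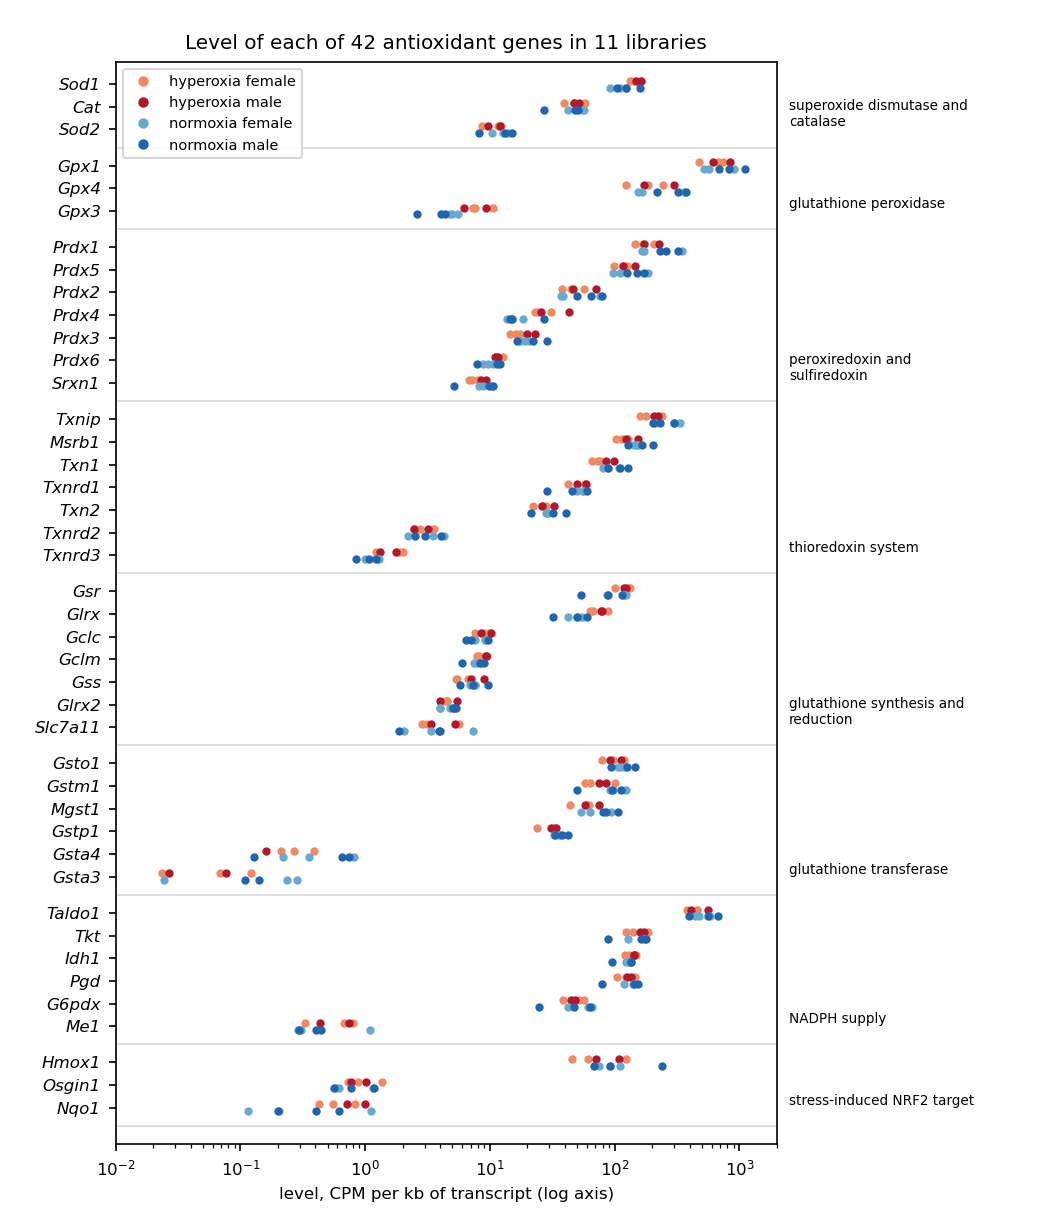
Level of each of the 42 genes in CPM per kb of transcript on a log axis, with 1 point per library, hyperoxia above and normoxia below on each line, and genes grouped by role and sorted by their mean. Libraries at 0 are not drawn. Gpx1 lies furthest right and Gsta3 furthest left, and the spread between genes is wider than the spread between the oxygen groups.

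The first line of defence, superoxide dismutase and catalase, had no called gene among 3. Sod1, the cytosolic copper and zinc superoxide dismutase, stood at 84.8, 91.0 and 105 CPM in HF1 to HF3 and 105 and 95.3 CPM in HM2 and HM3, against 59.3, 70.8 and 79.8 CPM in NF1 to NF3 and 103, 79.4 and 66.4 CPM in NM1 to NM3. The 3 female hyperoxia libraries were above the 3 female normoxia libraries, while NM1 was as high as the hyperoxia libraries. Its mean was 96.1 ± 8.71 CPM in hyperoxia (SD, n = 5) and 76.5 ± 15.2 CPM in normoxia (SD, n = 6), with a log2 fold change of 0.34 ± 0.17 (edgeR adjusted p = 0.638). Cat, catalase, which splits hydrogen peroxide without a cofactor from glutathione, stood at 152, 124 and 103 CPM in HF1 to HF3 and 123 and 136 CPM in HM2 and HM3, against 145, 149 and 110.3 CPM in NF1 to NF3 and 125, 132 and 71.5 CPM in NM1 to NM3. The groups overlapped, NM3 was lowest, and the log2 fold change was 0.07 ± 0.20. Sod2, the manganese enzyme of mitochondria, ranged from 50.8 to 72.6 CPM in hyperoxia and from 48.3 to 88.1 CPM in normoxia, with a log2 fold change of -0.18 ± 0.19.

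Of the 3 glutathione peroxidases, Gpx3 rose and the most abundant ones did not pass the test. Gpx3 encodes a selenium enzyme that is secreted and acts on peroxides outside the cell, and kidney is its best-known source. Its level was 11.6, 17.0 and 12.2 CPM in HF1 to HF3 and 14.9 and 9.88 CPM in HM2 and HM3, against 7.63, 7.86 and 8.88 CPM in NF1 to NF3 and 6.99, 6.46 and 4.18 CPM in NM1 to NM3. Every hyperoxia library was above every normoxia library, and therefore within each sex too, and NM3 was the lowest of all. The means were 13.1 ± 2.80 CPM in hyperoxia (SD, n = 5) and 7.00 ± 1.61 CPM in normoxia (SD, n = 6), a 1.88-fold difference (log2 fold change 0.91 ± 0.18, edgeR adjusted p = 0.0261), and the gene ranked 79 of 19948 by p. The counts behind this were 264 to 578 per hyperoxia library and 81 to 240 per normoxia library.

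The call depended on single libraries. It held in 7 of the 11 fits that left out 1 library each. Without HM2 the log2 fold change was 0.755 (adjusted p = 0.241), without HF2 0.814 (0.10), without NF1 0.887 (0.0762) and without NF2 0.871 (0.066), all by edgeR. Leaving out HM2 or HM3 leaves 1 library in its group, which is assumed to vary like the others, and the filter then passes 23406 and 23420 genes in place of 19948. On the 19948 genes, an alternative added after seeing the data, Gpx3 was not called without HM2 (0.746, adjusted p = 0.219) or without HM3 (1.04, adjusted p = 0.0584). In a fit that left out HF2, HF3, NF3 and NM3 together, the libraries with the most detected genes, it was 0.735 (adjusted p = 0.21).

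Gpx3 lies on chromosome 11. The sequence upstream of its start is shown because it belongs to the called gene. It is the RefSeq promoter entry (build GRCm38.p6, chr11:54902604-54902771, plus strand, from 250 to 83 bases before the transcription start), 5′ to 3′, and it holds none of the motifs searched (named further on), so no letter is in capitals.
Gpx3 upstream: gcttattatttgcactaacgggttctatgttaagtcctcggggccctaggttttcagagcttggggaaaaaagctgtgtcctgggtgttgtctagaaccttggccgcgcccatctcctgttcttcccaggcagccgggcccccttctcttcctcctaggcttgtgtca

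Gpx1, whose enzyme reduces hydrogen peroxide in the cytosol and mitochondria, stood at 718, 505 and 796 CPM in HF1 to HF3 and 908 and 664 CPM in HM2 and HM3, against 556, 611 and 961 CPM in NF1 to NF3 and 1191, 734 and 885 CPM in NM1 to NM3. NM1 was highest and HF2 lowest, the groups overlapped, and the log2 fold change was -0.16 ± 0.22. Gpx4, the enzyme that reduces lipid peroxides in membranes and guards against ferroptosis, stood at 183, 123 and 241 CPM in HF1 to HF3 and 297 and 172 CPM in HM2 and HM3, against 154, 164 and 359 CPM in NF1 to NF3 and 369, 218 and 321 CPM in NM1 to NM3. Its log2 fold change was -0.34 ± 0.27, with an SE larger than for most of the set. NF3, NM1 and NM3 were highest and HF2 lowest, and these libraries are described further on.

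Peroxiredoxins are peroxidases that act through a cysteine and are very abundant proteins. None of 7 genes of this group was called. Prdx4, the peroxiredoxin of the endoplasmic reticulum, where disulfide formation in new proteins produces hydrogen peroxide, stood at 22.8, 23.9 and 30.3 CPM in HF1 to HF3 and 42.3 and 25.3 CPM in HM2 and HM3, against 14.95, 13.5 and 18.4 CPM in NF1 to NF3 and 26.7, 14.3 and 14.9 CPM in NM1 to NM3. All female hyperoxia libraries were above the female normoxia libraries. In males NM1 lay between HM3 and HM2, and over both sexes NM1 was the one normoxia library that reached the hyperoxia range. The means were 28.9 ± 7.99 CPM in hyperoxia (SD, n = 5) and 17.1 ± 4.99 CPM in normoxia (SD, n = 6), 1.73-fold apart (log2 fold change 0.79 ± 0.20, edgeR adjusted p = 0.0841). Prdx4 was called under several alternatives, among them DESeq2 (adjusted p = 0.0423), no low-count filter (0.00663) and the fit without NM1 (0.0304), and over the fits that left out 1 library its edgeR adjusted p ran from 0.0304 to 0.504.

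Prdx4 is X-linked. Its upstream sequence (RefSeq, GRCm38.p6, chrX:155338475-155338710, minus strand, from 250 to 15 bases before the start) is shown as that of the gene with the next smallest p after Gpx3. Capitals mark 3 GC boxes and 1 inverted CCAAT box.
Prdx4 upstream: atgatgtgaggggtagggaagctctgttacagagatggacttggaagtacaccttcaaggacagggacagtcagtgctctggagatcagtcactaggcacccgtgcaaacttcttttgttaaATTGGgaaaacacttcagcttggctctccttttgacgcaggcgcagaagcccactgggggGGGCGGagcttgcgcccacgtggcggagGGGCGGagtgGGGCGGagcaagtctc

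Prdx1, an abundant cytosolic peroxiredoxin, stood at 386, 335 and 473 CPM in HF1 to HF3 and 516 and 391 CPM in HM2 and HM3, against 383, 394 and 796 CPM in NF1 to NF3 and 734, 534 and 592 CPM in NM1 to NM3. Both male hyperoxia libraries were below the 3 male normoxia libraries, the female groups overlapped, and NF3 and NM1 were highest. Its log2 fold change was -0.42 ± 0.23 (edgeR adjusted p = 0.722). Prdx6, which unlike the others uses glutathione and also has phospholipase activity, stood at 30.5, 26.9 and 26.6 CPM in HF1 to HF3 and 27.7 and 26.2 CPM in HM2 and HM3, against 22.9, 25.4 and 21.2 CPM in NF1 to NF3 and 28.7, 27.4 and 18.7 CPM in NM1 to NM3. The 3 female hyperoxia libraries were above the female normoxia libraries, with a log2 fold change of 0.19 ± 0.15 over both sexes. Srxn1, sulfiredoxin, which repairs overoxidized peroxiredoxins and is an NRF2 target, stood at 22.6, 20.4 and 19.0 CPM in HF1 to HF3 and 23.8 and 26.4 CPM in HM2 and HM3, against 22.8, 24.7 and 29.1 CPM in NF1 to NF3 and 27.6, 29.6 and 14.6 CPM in NM1 to NM3. Its female hyperoxia libraries were all below the female normoxia libraries, and NM3 was the lowest library, with a log2 fold change of -0.12 ± 0.18.

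Prdx3, the peroxiredoxin of mitochondria, ranged from 21.4 to 33.7 CPM in hyperoxia and from 24.3 to 42.3 CPM in normoxia (log2 fold change -0.16 ± 0.16), and its female libraries did not overlap, hyperoxia being lower. Prdx5 ranged from 125 to 185 CPM in hyperoxia and from 123 to 232 CPM in normoxia (log2 fold change -0.19 ± 0.20). Prdx2, which is also among the most abundant proteins of red blood cells, stood at 72.0, 61.5 and 92.2 CPM in HF1 to HF3 and 114 and 74.3 CPM in HM2 and HM3, against 62.1, 60.1 and 124 CPM in NF1 to NF3 and 128, 80.4 and 103 CPM in NM1 to NM3 (log2 fold change -0.13 ± 0.22). The erythroid marker list, with 7 of 8 genes past the filter, summed to 182, 123, 254, 54.0 and 308 CPM in HF1, HF2, HF3, HM2 and HM3, against 106, 103, 759, 1218, 101 and 545 CPM in NF1, NF2, NF3, NM1, NM2 and NM3. In normoxia, NM1, NF3 and NM3 were highest both in Prdx2 and in the erythroid sum. In hyperoxia, HM2 was highest in Prdx2 and lowest in the erythroid sum. The part of erythroid RNA in the level of Prdx2 was not tested. Exons of Prdx2 overlap those of Junb and Rnaseh2a, and those of Prdx5 overlap Trmt112, on the opposite strand, so reads may be shared.

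In the thioredoxin system none of 7 genes was called, and 5 of the 7 had a log2 fold change below 0. Txnrd3, a thioredoxin reductase that carries a glutaredoxin domain and is best known from testis, was the exception by p. It stood at 5.74, 5.34 and 3.50 CPM in HF1 to HF3 and 5.05 and 3.70 CPM in HM2 and HM3, against 3.63, 3.66 and 2.85 CPM in NF1 to NF3 and 2.40, 3.50 and 3.05 CPM in NM1 to NM3. HF3 was below NF1 and NF2, and the other 4 hyperoxia libraries were above all 6 normoxia libraries. The means were 4.67 ± 1.003 CPM in hyperoxia (SD, n = 5) and 3.18 ± 0.504 CPM in normoxia (SD, n = 6) (log2 fold change 0.54 ± 0.22, edgeR adjusted p = 0.463). Txnip, the inhibitor that binds thioredoxin and also restrains glucose uptake, stood at 674, 508 and 453 CPM in HF1 to HF3 and 585 and 631 CPM in HM2 and HM3, against 853, 952 and 593 CPM in NF1 to NF3 and 659, 839.6 and 575 CPM in NM1 to NM3. HF3 was lowest and NF2 highest, the groups overlapped, and the log2 fold change was -0.37 ± 0.20 (edgeR adjusted p = 0.738). An antisense gene, Gm15441, overlaps Txnip exons.

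Txn1, cytosolic thioredoxin, stood at 79.7, 69.7 and 77.4 CPM in HF1 to HF3 and 103 and 89.2 CPM in HM2 and HM3, against 84.7, 92.1 and 114 CPM in NF1 to NF3 and 133, 116 and 92.6 CPM in NM1 to NM3. The female hyperoxia libraries were all below the female normoxia libraries, the male groups overlapped, and the log2 fold change was -0.30 ± 0.17 (edgeR adjusted p = 0.739). Txnrd1, the cytosolic reductase that recharges it and an NRF2 target, ranged from 152 to 212 CPM in hyperoxia and from 103 to 217 CPM in normoxia, with a log2 fold change of 0.13 ± 0.20. In mitochondria, Txn2 had a log2 fold change of -0.13 ± 0.18 and its reductase Txnrd2 one of -0.18 ± 0.20. Msrb1, a selenoprotein that reduces oxidized methionine, ranged from 123 to 185 CPM in hyperoxia and from 154 to 245 CPM in normoxia (log2 fold change -0.31 ± 0.18), with female libraries that did not overlap.

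Glutathione synthesis and reduction had 5 of 7 log2 fold changes above 0, with a median of 0.15, and none called. Glrx, glutaredoxin, uses glutathione to remove the glutathione that oxidation attaches to protein cysteines. It stood at 85.6, 119 and 91.0 CPM in HF1 to HF3 and 104 and 107 CPM in HM2 and HM3, against 67.4, 73.5 and 57.3 CPM in NF1 to NF3 and 81.5, 67.3 and 43.5 CPM in NM1 to NM3. Every hyperoxia library was above every normoxia library, and therefore within each sex too. The means were 101 ± 13.3 CPM in hyperoxia (SD, n = 5) and 65.1 ± 13.2 CPM in normoxia (SD, n = 6), 1.57-fold apart (log2 fold change 0.65 ± 0.18, edgeR adjusted p = 0.145). Glrx was called in DESeq2 (adjusted p = 0.0204) and when genes under a mean of 1 CPM were left out (edgeR, 0.0357), but in none of the 11 fits that left out 1 library, whose adjusted p ran from 0.0541 to 0.643.

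Glrx lies on chromosome 13. The upstream sequence is shown as that of the second gene whose oxygen groups did not overlap (RefSeq, GRCm38.p6, chr13:75839635-75839867, plus strand, from 250 to 18 bases before the start). Capitals mark a match to the AP-1 motif.
Glrx upstream: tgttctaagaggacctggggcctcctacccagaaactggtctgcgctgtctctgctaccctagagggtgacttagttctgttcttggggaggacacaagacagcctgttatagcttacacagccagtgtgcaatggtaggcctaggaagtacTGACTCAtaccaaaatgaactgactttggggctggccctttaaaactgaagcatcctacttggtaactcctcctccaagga

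Gsr, glutathione reductase, was the most abundant gene of this group per length at 108 CPM per kb. It stood at 349.5, 353 and 268 CPM in HF1 to HF3 and 317 and 330.3 CPM in HM2 and HM3, against 318, 328 and 234 CPM in NF1 to NF3 and 234, 304 and 143 CPM in NM1 to NM3. Both male hyperoxia libraries were above the male normoxia libraries, of which NM3 was lowest, and the female groups overlapped. The log2 fold change was 0.33 ± 0.21 over both sexes (edgeR adjusted p = 0.82). Gclc and Gclm, the catalytic and modifier subunits of the rate-limiting enzyme of glutathione synthesis, had log2 fold changes of 0.15 ± 0.16 and 0.18 ± 0.15. Gclc ranged from 25.9 to 34.7 CPM in hyperoxia and from 22.2 to 32.8 CPM in normoxia, and Gclm from 44.1 to 52.6 CPM in hyperoxia and from 33.2 to 50.5 CPM in normoxia. Gclm exons overlap Gm17494 and Gm6061.

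Gss, which makes glutathione in the last step, stood at 13.1, 10.8 and 10.5 CPM in HF1 to HF3 and 17.7 and 13.8 CPM in HM2 and HM3, against 13.5, 14.9 and 14.9 CPM in NF1 to NF3 and 19.1, 14.3 and 11.3 CPM in NM1 to NM3. The female hyperoxia libraries were all below the female normoxia libraries, while HM2 was among the highest, and the log2 fold change was -0.13 ± 0.16. Gss overlaps Acss2 and the antisense genes Gssos1 and Gssos2. Slc7a11, the cystine importer that supplies the cysteine, varied widely, from 26.4 to 51.7 CPM in hyperoxia and from 17.3 to 67.6 CPM in normoxia (log2 fold change 0.14 ± 0.32). Glrx2, the mitochondrial glutaredoxin, stood at 15.4, 15.99 and 15.9 CPM in HF1 to HF3 and 14.1 and 19.1 CPM in HM2 and HM3, against 14.1, 14.1 and 16.8 CPM in NF1 to NF3 and 18.7, 18.3 and 17.9 CPM in NM1 to NM3. Its oxygen groups overlapped, with a log2 fold change of -0.03 ± 0.14.

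**Figure D3:**
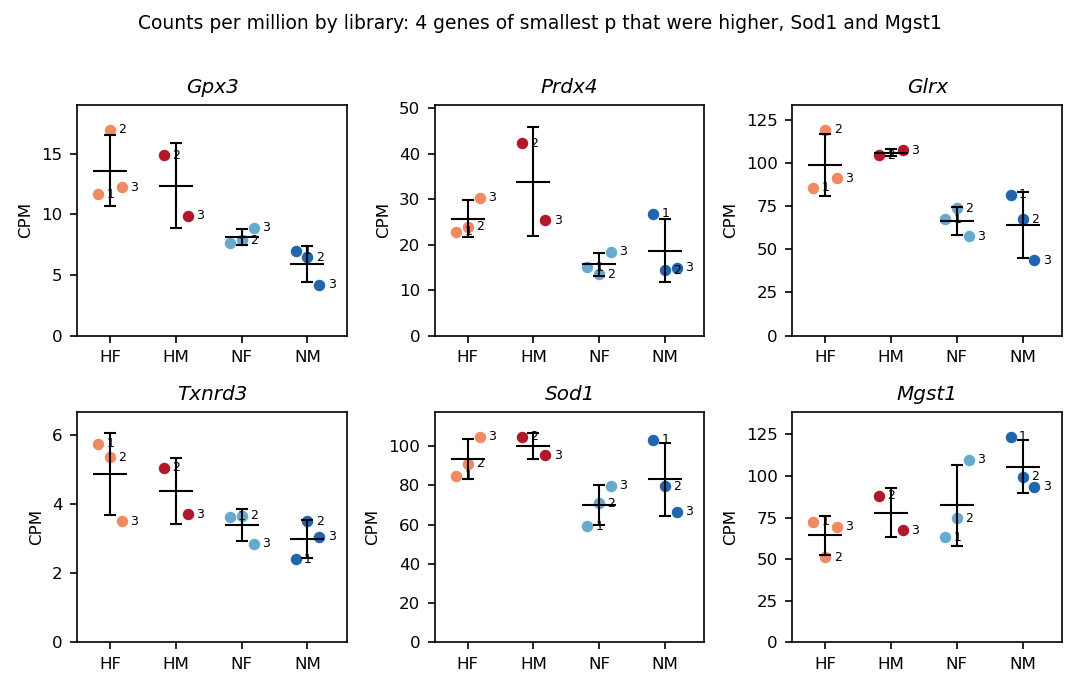
CPM by library for the 4 genes that were higher with an unadjusted p under 0.05 (Gpx3, Prdx4, Glrx and Txnrd3), the next gene that was higher by p (Sod1) and the gene of smallest p that was lower (Mgst1). Points are libraries with their replicate number, horizontal lines are group means and bars are SD, over 3 libraries in each group but HM, which has 2. Gpx3 and Glrx show no overlap between the oxygen groups, and NM1 reaches the hyperoxia range in Prdx4 and Sod1.

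All 5 glutathione transferases that were tested had a log2 fold change below 0, with a median of -0.30, and none was called. These enzymes join glutathione to electrophiles, and near-identical copies within the family can share reads. Mgst1, the microsomal transferase that also acts as a peroxidase, stood at 72.5, 51.1 and 69.4 CPM in HF1 to HF3 and 88.2 and 67.4 CPM in HM2 and HM3, against 63.1, 74.6 and 109.7 CPM in NF1 to NF3 and 124, 99.5 and 93.4 CPM in NM1 to NM3. Both male hyperoxia libraries were below the male normoxia libraries, the female groups overlapped, and NM1 and NF3 were highest. The means were 69.7 ± 13.3 CPM in hyperoxia (SD, n = 5) and 94.0 ± 22.3 CPM in normoxia (SD, n = 6) (log2 fold change -0.40 ± 0.19, edgeR adjusted p = 0.615). Gsto1, an omega-class transferase that also reduces dehydroascorbate, stood at 140, 93.8 and 116 CPM in HF1 to HF3 and 133 and 109 CPM in HM2 and HM3, against 133, 144 and 125 CPM in NF1 to NF3 and 172, 148 and 111 CPM in NM1 to NM3. NM1 was highest and HF2 lowest, and the log2 fold change was -0.23 ± 0.18.

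Gstm1, a mu-class transferase, stood at 129.7, 81.1 and 74.6 CPM in HF1 to HF3 and 95.9 and 109 CPM in HM2 and HM3, against 119, 159 and 125 CPM in NF1 to NF3 and 122, 146 and 64.4 CPM in NM1 to NM3. The groups overlapped and NM3 was lowest, with a log2 fold change of -0.30 ± 0.22. Gstp1, the pi-class enzyme, ranged from 19.7 to 27.7 CPM in hyperoxia and from 26.9 to 34.9 CPM in normoxia (log2 fold change -0.23 ± 0.15). The alpha-class genes were hardly detected. Gsta4, whose enzyme clears the lipid peroxidation product 4-hydroxynonenal, had 8, 13 and 6 counts in HF1 to HF3 and 4 and 0 in HM2 and HM3, against 25, 6 and 8 counts in NF1 to NF3 and 12, 3 and 14 in NM1 to NM3. Its log2 fold change of -1.62 ± 0.80 rests on those counts (edgeR adjusted p = 0.649). In CPM it stood at 0.265, 0.381 and 0.206 CPM in HF1 to HF3 and 0.158 and 0 CPM in HM2 and HM3, against 0.795, 0.213 and 0.345 CPM in NF1 to NF3 and 0.640, 0.125 and 0.723 CPM in NM1 to NM3, with a floor of 0.0880 to 0.160 CPM, and the groups overlapped.

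The 6 genes of NADPH supply were evenly split, 3 above and 3 below 0, with a median log2 fold change of 0.02 and none called. Taldo1, transaldolase, the most abundant of them, stood at 621, 519 and 617 CPM in HF1 to HF3 and 764 and 558 CPM in HM2 and HM3, against 599, 645 and 789 CPM in NF1 to NF3 and 923, 760.4 and 536 CPM in NM1 to NM3. NM1 was highest and HF2 lowest, with a log2 fold change of -0.19 ± 0.20. G6pdx, the entry enzyme of the pentose phosphate pathway, whose exons overlap Ikbkg, had a log2 fold change of -0.07 ± 0.23, and Pgd, which makes the next NADPH of the pathway, one of -0.03 ± 0.20. Tkt, transketolase, had 0.06 ± 0.21 on the same scale, and Idh1, the cytosolic isocitrate dehydrogenase, 0.14 ± 0.17. NM3 was the lowest library of all 11 for G6pdx at 66.1, Pgd at 175.5, Tkt at 286 and Idh1 at 218 CPM. This library also had the lowest total count (18087948) and the lowest alveolar macrophage marker sum (4979 CPM) of the 11. Its endothelial and mesenchymal marker sums were the highest (97.3 and 85.7 CPM). How these relate to its low levels was not tested. Me1, malic enzyme, was low, from 1.09 to 2.61 CPM in hyperoxia and from 0.961 to 3.62 CPM in normoxia (log2 fold change 0.35 ± 0.40), and it overlaps the antisense gene A330041J22Rik.

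None of the 3 stress-induced targets of NRF2 was called. Hmox1, heme oxygenase, which breaks down heme and is also induced by heme itself, stood at 95.2, 192 and 71.0 CPM in HF1 to HF3 and 111 and 170.4 CPM in HM2 and HM3, against 172, 143 and 118 CPM in NF1 to NF3 and 145, 376 and 108 CPM in NM1 to NM3. NM2 was far above the rest, the groups overlapped, and the log2 fold change was -0.43 ± 0.32 (edgeR adjusted p = 0.882). Nqo1, a quinone reductase used as a marker of NRF2 activity, had 20 to 44 counts per hyperoxia library and 5 to 40 per normoxia library. It ranged from 0.663 to 1.54 CPM in hyperoxia and from 0.178 to 1.72 CPM in normoxia, with a log2 fold change of 0.72 ± 0.55. Osgin1, an oxidative stress response gene, ranged from 1.48 to 2.73 CPM in hyperoxia and from 1.13 to 2.37 CPM in normoxia, with a log2 fold change of 0.22 ± 0.33.

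The antioxidant response element is the DNA motif through which NRF2 acts, so its letters were searched for in the 250 bases before the start of each gene in the RefSeq promoters of GRCm38.p6. The motifs were TGACNNNGC for the element, TGANTCA for AP-1, GGGCGG for the GC box and CCAAT for the CCAAT box, on both strands. The element and AP-1 can overlap, as they do in Prdx1. A promoter entry matched 37 of the 42 genes, Prdx6, Gsr, Gsta4, Gclc and Hmox1 being those with none. The element's letters were found in 7 of the 37 (18.9%), beside 11.5% of all 27025 genes with an entry and 10.2% of all 32851 promoters. AP-1 was found in 13.5% beside 7.82% of genes, the GC box in 78.4% beside 35.4%, and the CCAAT box in 51.4% beside 37.5%. These backgrounds were not limited to genes measured in these cells. Of 90 further pathway genes with an entry, from the lists described further on, 16 had the element. AP-1 was found in 6 of those 90, the GC box in 54 and the CCAAT box in 43. Of the 3 genes with the smallest p, Gpx3 had a GC box and a CCAAT box nearer to the start than the printed stretch, and no antioxidant response element was matched in Gpx3, Prdx4 or Glrx. A match is a description of letters, and no match says only that these letters are not in this window.

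The 7 genes with the element were Gsta3, Gclm, Prdx1, Mgst1, Txnrd1, Sod1 and G6pdx, and their log2 fold changes over both sexes ran from -0.42 (Prdx1) to 0.34 (Sod1), without Gsta3, which was not tested. The window around the match is shown for the 5 in which it lies outside exons, with the match in capitals, as the letters that stand for the NRF2 site in this search. They are GRCm38.p6, plus strand, 5′ to 3′: Gsta3 chr1:21240449-21240487, Gclm chr3:122245408-122245446, Prdx1 chr4:116685451-116685489, Txnrd1 chr10:82859099-82859137 and Sod1 chr16:90220691-90220729. In all but Gsta3 the match reads on the other strand, so it appears reversed.
Gsta3: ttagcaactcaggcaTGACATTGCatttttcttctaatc
Gclm: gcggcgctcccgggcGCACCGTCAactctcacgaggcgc
Prdx1: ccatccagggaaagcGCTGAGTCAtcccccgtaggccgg
Txnrd1: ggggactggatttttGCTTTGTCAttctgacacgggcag
Sod1: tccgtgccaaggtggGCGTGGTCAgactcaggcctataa

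The title of the series asks about sex, and the sexes were tested apart and against each other. In females no gene of the set was called (0.0401% of all genes were), and 3 had an unadjusted p under 0.05, beside 4.53% of all genes. In males again none was called (0.0401% of all genes) and 3 had an unadjusted p under 0.05, beside 5.5% of all genes. DESeq2 called none in either sex. In both sexes the 3 were Gpx3, Prdx4 and Glrx. The log2 fold change of Gpx3, with its SE, was 0.74 ± 0.24 in females and 1.07 ± 0.27 in males. That of Prdx4 was 0.72 ± 0.26 in females and 0.86 ± 0.29 in males, and that of Glrx 0.58 ± 0.25 in females and 0.72 ± 0.27 in males. The edgeR adjusted p-values of Gpx3 were 0.594 in females and 0.284 in males. The median over the set was -0.13 in females and 0.05 in males, where all genes had medians of -0.0046 in females and -0.05 in males. The sign was the same in both sexes in 32 of 41 genes, with no share over all genes at hand to set beside it.

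Counted by overlap, 10 of 41 genes had female hyperoxia libraries all on one side of the female normoxia libraries, 5 above (Sod1, Gpx3, Prdx4, Prdx6 and Glrx) and 5 below (Prdx3, Srxn1, Txn1, Msrb1 and Gss), beside 10.2% of all genes. In males it was 9 of 41, 7 above (Gpx3, Txnrd3, Gclm, Gsr, Glrx, Idh1 and Nqo1) and 2 below (Prdx1 and Mgst1), beside 17.1% of all genes, where 2 hyperoxia libraries stand against 3.

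No difference between the sexes in their response passed the test. The interaction, the female response minus the male response, had no called gene in the set or among all genes (0%), and 0 genes of the set had an unadjusted p under 0.05, beside 1.67% of all genes (334). DESeq2 called 0 of the set and 3 of all genes. The difference was below 0 in 28 of 41 genes, with a median of -0.12 beside 0.01 over all genes. The smallest p above 0 belonged to Gsta4 (1.93 ± 1.58), which is near the floor, Glrx2 (0.21 ± 0.28) and Prdx6 (0.16 ± 0.30), and the smallest below 0 to Gss (-0.42 ± 0.32), Srxn1 (-0.37 ± 0.35) and Txnip (-0.37 ± 0.40). All adjusted p-values of the interaction were 1 in edgeR. For Gss and Srxn1 this contrast is the one in which the female hyperoxia libraries lay below female normoxia while the males did not. Without HM2, the interaction of Glrx2 was -0.0189, and without HF2, HF3, NF3 and NM3, that of Srxn1 was 0.112.

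Normoxia females and normoxia males were also compared, and no gene of the set was called, beside 0.0251% of all genes (5). None had an unadjusted p under 0.05, beside 3.63% of all genes, and DESeq2 called none. The median difference, female over male, was -0.05 beside -0.06 over all genes. Gpx3 was the one gene with all female libraries above all male libraries (0.47 ± 0.25), with 7.63, 7.86 and 8.88 CPM in NF1 to NF3 against 6.99, 6.46 and 4.18 CPM in NM1 to NM3. Glrx2 was the one with all female libraries below (-0.29 ± 0.19), at 14.1, 14.1 and 16.8 CPM in NF1 to NF3 against 18.7, 18.3 and 17.9 CPM in NM1 to NM3. Such separation was seen in 5.61% of all genes. The others with the smallest p were Gsr (0.37 ± 0.28) and Cat (0.30 ± 0.26), and, lower in females, Mgst1 (-0.35 ± 0.25) and Gpx1 (-0.40 ± 0.30). The edgeR adjusted p was 0.851 for each of these 6 genes.

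NM1, NF3 and NM3, the libraries in which Gpx4 was highest, shared a property that is not part of the design. For each library, the median log2 deviation of 767 genes with coding transcripts under 1000 bases was set against that of 5409 genes with transcripts over 4000 bases. This short-minus-long difference was -0.25, -0.58 and 0.03 in HF1 to HF3 and 0.28 and -0.23 in HM2 and HM3, against -0.37, -0.33 and 0.42 in NF1 to NF3 and 0.78, -0.02 and 0.33 in NM1 to NM3. Gpx4, with a transcript of 995 bases and so 1 of the 767, followed its order in all libraries but for HF1 and HM3, which were swapped. It ran from 123 CPM in HF2, the lowest library by this measure, to 369 CPM in NM1, the highest. Prdx1, at 2294 bases, was lowest in HF2 and highest in NF3 and NM1, while Gsr, at 2673 bases, was highest in HF2 and lowest in NM3. NM1, NF3 and NM3 also had the highest erythroid sums, at 1218, 759 and 545 CPM. HM2, the next library by the short-minus-long difference, had the lowest erythroid sum, at 54.0 CPM. How the 2 properties relate was not tested. Per the labels' protocols, short fragments under 250 bp were removed from some libraries, and which ones is not clear.

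**Figure D4:**
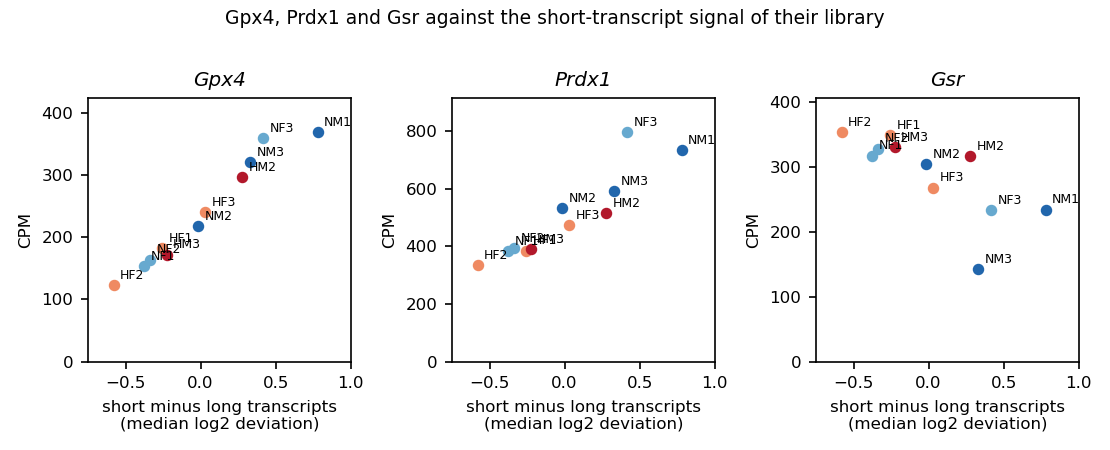
CPM of Gpx4, Prdx1 and Gsr (vertical axes) against the short-minus-long difference of each library (horizontal axis, log2), with 1 labelled point per library in the colour of its group. Gpx4 climbs with the difference from 123 CPM in HF2 to 369 CPM in NM1, Prdx1 is highest in NF3 and NM1, and Gsr is lowest in NM3.

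With this difference as a covariate, an alternative chosen after seeing the data, the median log2 fold change of the set was -0.0038. Gpx3 was called at 0.95 ± 0.19 (edgeR adjusted p = 0.0325) and Prdx4 was called at 1.004 ± 0.14 (0.00546). Sod1 was 0.45 ± 0.13 (0.192) and Glrx 0.62 ± 0.18 (0.178). Prdx4 and Sod1, with transcripts of 990 and 641 bases, are among the 767 short genes from which the covariate was computed. The covariate was also uneven between the oxygen groups, with a median of -0.225 in hyperoxia and 0.158 in normoxia. Of the 24 genes below 0 in the fit without the covariate, 16 were closer to 0 with it and 7 were further below, and Prdx2 stood above 0 at 0.17 ± 0.12. Among those closer to 0, Gpx4 was 0.03 ± 0.14, Prdx1 -0.15 ± 0.14, Gpx1 0.09 ± 0.14 and Mgst1 -0.21 ± 0.13. Among those further below, Hmox1 was -0.78 ± 0.25 (0.263), Txnip -0.48 ± 0.17 (0.33) and Sod2 -0.30 ± 0.17 (0.743). Of the 17 genes above 0, 10 were closer to 0 and 7 were further above. Among those further above were 2 low genes, Nqo1 at 1.35 ± 0.60 (0.541) and Osgin1 at 0.30 ± 0.38 (0.984).

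**Figure D5:**
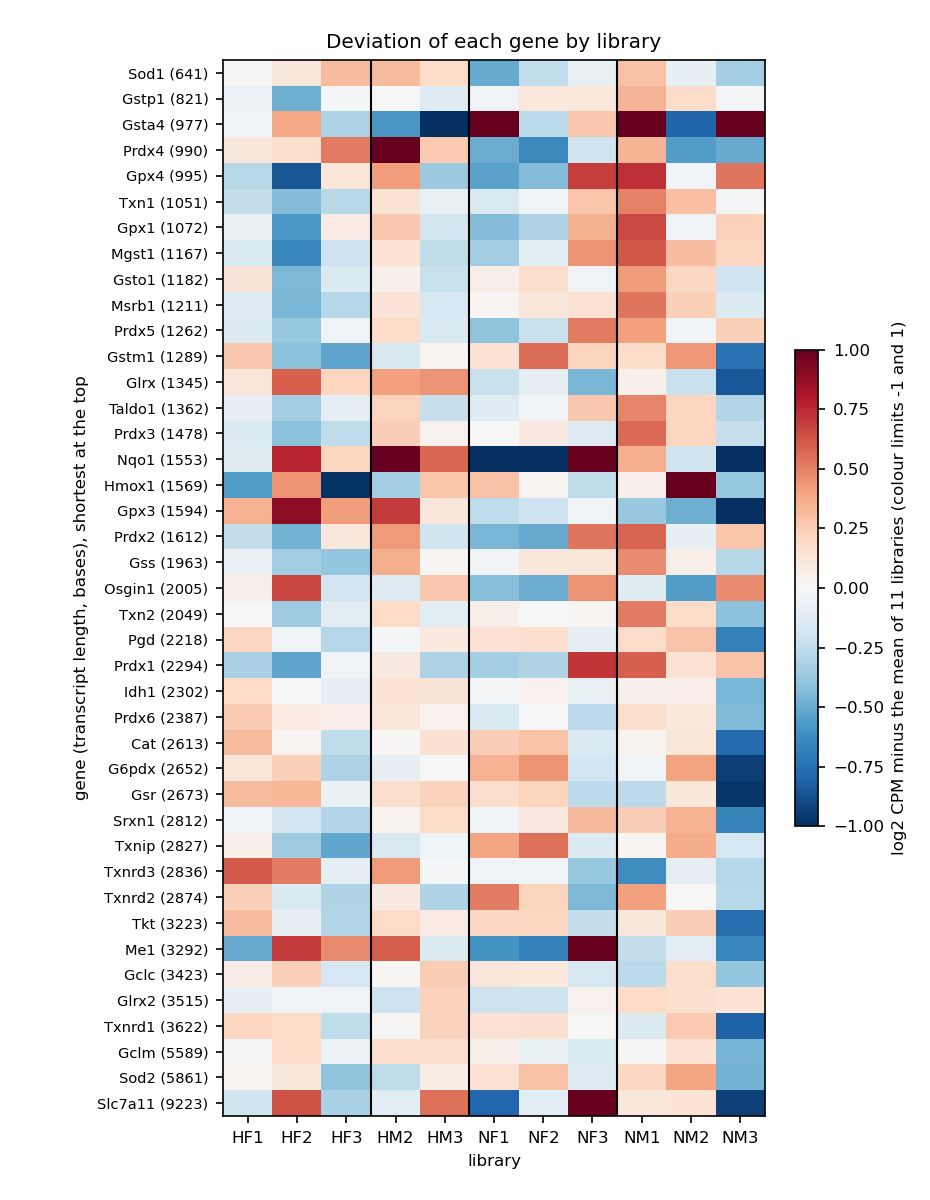
Log2 CPM of each of the 41 measured genes minus its mean over the 11 libraries, in colour, with genes sorted by transcript length from the shortest at the top and libraries in columns by group. Short genes are mostly red in NM1 and mostly blue in HF2, NM3 is blue for many of the longer genes, and Gpx3 is red in the 5 hyperoxia libraries and pale to dark blue in the 6 normoxia libraries.

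The wider pathway gave no called gene. Of 102 further genes in 7 lists, 95 were measured, 0 were called in any of the 5 contrasts, and over both sexes 7 had an unadjusted p under 0.05 and were higher (7.37%, beside 4.79% of all genes) and 3 had one and were lower (3.16%, beside 3.33% of all genes). Their median log2 fold change was 0.00039. Among NRF2 and its regulators (10 of 10 measured, 6 above and 4 below 0) the smallest p was that of Maff, a small MAF protein that pairs with NRF2. Maff stood at 41.9, 38.3 and 34.8 CPM in HF1 to HF3 and 40.6 and 36.9 CPM in HM2 and HM3, against 51.3, 43.6 and 48.0 CPM in NF1 to NF3 and 60.4, 60.8 and 42.5 CPM in NM1 to NM3, so that every hyperoxia library was below every normoxia library (log2 fold change -0.40 ± 0.15, edgeR adjusted p = 0.396). The library values of Maff were added after seeing the data, and 2.16% of all genes did not overlap in either direction. Nfe2l2 itself ranged from 40.3 to 65.8 CPM in hyperoxia and from 31.8 to 92.7 CPM in normoxia (log2 fold change -0.24 ± 0.23).

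The other 6 lists are given with the gene of smallest p in each. The further glutathione enzymes (13 of 15 measured, 5 above and 8 below 0) were led by Chac1, which degrades glutathione, at -1.18 ± 0.46 (edgeR adjusted p = 0.422). In the further glutathione transferases (14 of 19, 9 above and 5 below) it was Mgst2 at 0.71 ± 0.25 (0.309). Among the thioredoxin fold and methionine sulfoxide enzymes (12 of 12, 4 above and 8 below) it was Nxn, nucleoredoxin, at 0.52 ± 0.23 (0.555). The further NADPH and pentose phosphate enzymes (13 of 13, 6 above and 7 below) had Aldh1l1 at 0.41 ± 0.17 (0.474). Among other NRF2-linked and metal-binding genes (17 of 17, 8 above and 9 below) it was Ptgr1, a prostaglandin and alkenal reductase, at 0.69 ± 0.20 (0.164), and among the selenoproteins and their machinery (16 of 16, 10 above and 6 below) Selenok at -0.32 ± 0.18 (0.752).

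Markers of other cell types that lung tissue could leave in the sort were summed in each library. Interstitial macrophage markers (6 of 7 past the filter) summed to 17.0, 84.6, 26.3, 43.5 and 31.5 CPM in HF1, HF2, HF3, HM2 and HM3, against 13.2 to 34.1 CPM in normoxia. HF2 and HM2, the highest of these, were also the libraries with most Gpx3. Other libraries did not follow this order. HF1, with a sum of 17.0 CPM, had 11.6 CPM of Gpx3, and NM1, with a sum of 34.1 CPM, had 6.99 CPM. All 6 measured markers of the list had a log2 fold change above 0, and none was called. Epithelial markers (10 of 10) summed to 371 to 453 CPM in hyperoxia and 180 to 351 CPM in normoxia, mostly through Cdh1 at 260 to 394 CPM in hyperoxia and 101 to 273 CPM in normoxia. Cdh1 averaged 268 CPM over all libraries, beside 40.2 for Sftpc, 4.82 for Epcam, 1.35 for Krt8 and 0.758 for Krt18. The sum therefore follows Cdh1 and does not by itself measure epithelial cells. Of the 10, 7 had a log2 fold change above 0 and 3 below 0, and none was called. The surfactant genes Sftpb, Sftpc and Sftpa1 were above 0, at 0.95 ± 0.28, 0.71 ± 0.39 and 0.68 ± 0.32. Epcam, a defining epithelial marker, was below 0 at -0.79 ± 0.23. It stood at 2.49 to 4.90 CPM in hyperoxia and 4.49 to 7.88 CPM in normoxia. Monocyte markers (8 of 8) summed to 1138 to 2280 CPM in hyperoxia and 582 to 2336 CPM in normoxia, nearly all of it Fn1. Fn1 averaged 1506 CPM over all libraries, beside 34.4 for Ccr2 and 0.993 for Ly6c2. This sum therefore follows Fn1 and does not by itself measure monocytes. All 8 monocyte markers had a log2 fold change above 0, and none was called. Neutrophil markers (7 of 8) summed to 45.2 to 52.4 CPM in hyperoxia and 36.3 to 67.3 CPM in normoxia, with 1, Mmp8, called higher, and Retnlg, Ngp and Camp at 0 in some libraries.

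Endothelial markers (8 of 8) summed to 34.2 to 64.9 CPM in hyperoxia and 39.4 to 97.3 CPM in normoxia, and mesenchymal markers (7 of 8) to 22.0 to 66.6 CPM in hyperoxia and 34.1 to 85.7 CPM in normoxia. Lymphocyte markers (6 of 8) summed to 3.55 to 7.21 CPM in hyperoxia and 2.49 to 7.02 CPM in normoxia. Immediate early genes of tissue dissociation (9 of 9) summed to 339 to 541 CPM in hyperoxia and 368 to 436 CPM in normoxia. The part of these cell types in the difference of Gpx3, Prdx4 or Glrx was not tested.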

How the data were processed

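Bulk RNA-seq was made from sorted alveolar macrophages in 11 libraries. The authors deposited raw read counts, 1 whole number per Ensembl gene in each library. Per the labels' protocols, a low-input kit for full-length cDNA was used, and molecular identifiers (the first 8 nucleotides) were trimmed off. Whether they served to collapse duplicates, and whether strand was used in counting, is not stated. The submitters' processing notes list mm39 as the build and, as tools, DESeq2 1.42, R 4.3.2, Salmon 1.10.1, STAR 2.7.9 and Trim Galore 0.6.7, with no role for any.

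Symbols were matched by identifier (90.7% of 57180). Counts were tested in R 4.3.3 with edgeR 4.0.16 (limma 3.58.1): filterByExpr with a minimum count of 10 and a minimum total of 15, TMM scaling, 1 mean per group over all 11 libraries and robust quasi-likelihood tests of 5 contrasts. Adjusted p-values are Benjamini-Hochberg over the 19948 genes tested. The SE of a log2 fold change was back-calculated from the test, as its absolute value divided by the square root of the F statistic. CPM use scaled library sizes, and lengths come from GENCODE M21, which is of another build, so the counts carry no coordinates. RefSeq promoters are of GRCm38.p6. Counts of the 19948 genes were simulated for the comparison over both sexes, and 19017 of them passed the filter again and were fitted. The test found 84% of 100 genes changed by a log2 of 1 and 99% of 100 changed by a log2 of 2. It made 7 false calls. The changed genes had a mean of at least 5 CPM, so these shares do not cover lower genes such as Txnrd3 or Nqo1. No library-wide signal such as the short-minus-long difference was simulated. Floors cover counting error only, while SDs and SEs include the spread between libraries. Within each group, all pairs of libraries differed by more than sampling noise (chi-square per gene of at least 16.7). DESeq2 1.42.0 and the other alternatives are given in the closing section.

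The genes, the 7 lists of pathway genes and the 10 marker lists were chosen with earlier results of these data known. Values in every library are given for genes called in a contrast, for the 5 of smallest p in each direction over both sexes, for the 3 of smallest p in each direction in the interaction and between the sexes in normoxia, and for the gene of highest level per kb in each of 8 role groups. The library values of Gpx4, Gstm1 and Maff and the short-minus-long difference were added after seeing the data. Gene names of pathway lists are those of smallest p in each list, with Nfe2l2 added.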

Additional observations from a re-analysis of the deposited data

Results flagged for a closer look

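For each measured gene, the 5 hyperoxia libraries and the 6 normoxia libraries were searched for a library far from the others, by the gap to its nearest neighbour as a share of the range of its group. Of 82 groups searched, 4 held such a library, which is about the 1 in 20 groups that chance gives. All 4 were in normoxia.

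Prdx4, the peroxiredoxin of the endoplasmic reticulum, stood at 26.7 CPM in NM1, where the nearest normoxia library had 18.4 CPM and the lowest 13.5 CPM. Hmox1, heme oxygenase, reached 376 CPM in NM2, where the nearest had 172 CPM and the lowest 108 CPM. Me1, malic enzyme, stood at 3.62 CPM in NF3, where the nearest had 1.46 CPM. Idh1, isocitrate dehydrogenase, was at 218 CPM in NM3, below the nearest at 285 CPM and the highest at 314 CPM.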

How the results depend on the processing

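The count of genes of the set called over both sexes, 1 in the fit described, was 2 without the low-count filter, 2 with genes under a mean of 1 CPM left out, 3 in DESeq2, 2 with the short-minus-long covariate and 0 without HF2, HF3, NF3 and NM3 (the 4 libraries of most detected genes), a fit in which HF1 is the only library of its group and is assumed to vary like the others. Leaving out 1 library at a time gave 0 to 2 (36 to 195 of all genes). The lowest, 36 without HM3 and 48 without HM2, are fits with 1 library left in that group and 23420 and 23406 genes passing the filter. On the 19948 genes, chosen after seeing the data, no gene of the set was called without HM2 or HM3 over both sexes, and of all genes 33 and 27 over both sexes, 1 and 0 in males and 2 and 2 in females. Over all genes, 141 were called over both sexes, against 302 without the filter, 295 with the stricter filter, 380 in DESeq2 and 23 without the 4 libraries. In females, 8 of all genes were called, against 96 without the filter, 76 in DESeq2, 2 without the 4 libraries, 14 with only the female groups in the fit, 19 with the covariate and 0 to 24 without 1 library. In males, 8 were called, against 83 without the filter, 13 with the stricter filter, 81 in DESeq2, 16 without the 4 libraries, 34 with only the male groups, 2 with the covariate and 0 to 19 without 1 library. In the interaction, the 2 sexes apart and the sexes in normoxia, no gene of the set was called under any alternative run. Signs turned in 3 results: the interaction of Srxn1 was 0.112 without the 4 libraries and that of Glrx2 ran from -0.0189 (without HM2) to 0.426 over the fits without 1 library, and the sex difference of Gpx1 in normoxia was 0.0208 with the covariate. The cause of these changes was not tested.

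With the replicate number as a block, 2 genes of the set (Gpx3 and Prdx4, with Prdx4 at 0.838 and an edgeR adjusted p of 0.0436) and 256 of all genes were called over both sexes, 23 in females and 21 in males. Over 15 same-numbered pairs, the correlation of deviations from the group means ran from -0.167 to 0.574, and 7 were over 0.1: those among HF1, NF1 and NM1, those among HF3, NF3 and NM3, and NF2 with NM2. The labels name no shared animal, litter or day, and the other 8 pairs were below 0.1. HM2 and HM3 make up their whole group, so their deviations mirror each other and their pairs are not separate evidence. For example, HF3 correlated at 0.108 with HM2 and at -0.108 with HM3. In the other groups, HF2 correlated at -0.167 with NM2 and at -0.0883 with NF2. HF1 correlated more with NM2 (0.512) than with NM1 (0.305) or NF1 (0.291). The numbers were not taken to pair the samples, and whether they mark a shared batch was not tested.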

Other observations

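The CPM of all 42 genes summed to 6173, 5292 and 5485 in HF1 to HF3 and 6651 and 5928 in HM2 and HM3, against 5988, 6360 and 6800 in NF1 to NF3 and 7635, 7070 and 5314 in NM1 to NM3. The oxygen groups overlapped, with HF2 and NM3 lowest and NM1 highest.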
